A study of Rattus norvegicus with 12 samples.

Results

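The miR-30 family is a group of mature microRNAs cut from 6 related hairpins. The 7 mature forms described here are rno-miR-30a-5p, rno-miR-30b-5p, rno-miR-30c-5p, rno-miR-30d-5p, rno-miR-30e-5p, rno-miR-30a-3p and rno-miR-30e-3p, taken by name from a table of 641 rat miRNAs; the prefix rno-, for rat, is mostly left out below. All 7 passed the filter on low values that left 303 miRNAs for testing. Small RNA was sequenced from the aorta of female rats of the SHR (spontaneously hypertensive rat) strain, which is inbred for high blood pressure. One group of 6 libraries carried the treatment label EWH; peptides derived from egg white are named in the title of the series. The control group of 6 libraries had received saline. Strain, sex and tissue were the same in both groups, and dose, duration and age are not given in the labels. Nothing in the labels says that libraries of a group came from separate rats, so the p-values cover the spread between these libraries alone, which may be technical.

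MicroRNAs are cut from a hairpin as a pair of arms, 5p and 3p, and one arm usually enters the silencing complex as the guide and pairs with mRNAs through its seed, bases 2 to 8. The 5p arms of the miR-30 family are the usual guides and are known for a common seed, so that they can act on the same mRNAs. In the heart miR-30 is known to limit connective tissue growth factor, a driver of matrix deposition. In cultured human smooth muscle miR-30b and miR-30c limit the osteogenic factor RUNX2, and in cultured human endothelium the family limits the Notch ligand DLL4. No mRNA was measured here, so none of these targets could be examined.

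RefSeq's miRNA table for the assembly GRCr8 gave the sequence of 4 of the 7 members. They are shown because the shared seed and the small differences behind it decide which reads can be told apart. The seed is in capitals, each sequence runs 5′ to 3′, and no sequence is printed for miR-30b-5p, miR-30d-5p and miR-30e-3p.
miR-30a-5p: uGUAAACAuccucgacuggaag
miR-30e-5p: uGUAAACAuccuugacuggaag
miR-30c-5p: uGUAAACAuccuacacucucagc
miR-30a-3p: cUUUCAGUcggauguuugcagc
miR-384-5p: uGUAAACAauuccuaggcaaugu
The first 3 share the seed GUAAACA, and in that table miR-384-5p, from a hairpin outside the family, was the other listed miRNA with it. Counted from 1 at the 5′ end of miR-30a-5p, miR-30e-5p differs from it at 1 of 22 positions, C13U. MiR-30c-5p differs from miR-30a-5p at 5 of the 22 positions compared (C13A, G14C, G18C, G19U and A20C), all behind the seed. How reads with a mismatch were assigned is not given in the sources used here, so reads of miR-30a-5p and miR-30e-5p may have been exchanged. The passenger arm miR-30a-3p has another seed, UUUCAGU. Its hairpin, from the plus strand in GRCr8, is shown with the 5p arm and then the 3p arm in capitals, since the balance of these arms is compared below.
mir-30a hairpin: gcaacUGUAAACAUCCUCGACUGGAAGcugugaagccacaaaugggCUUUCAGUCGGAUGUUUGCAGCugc
In the gene order of GRCr8 the hairpins lie in 3 neighbouring pairs. Those of miR-30e and miR-30c-1 lie inside Nfyc, which encodes a subunit of the transcription factor NF-Y. Those of miR-30d and miR-30b lie inside 1 long noncoding RNA gene, and miR-30a has miR-30c-2 as its nearest miRNA. The guide miR-30c-5p can come from either 30c hairpin, and its reads cannot be assigned to one of them.

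The deposited values are in reads-per-million units (rpm) of library totals of 23887799 to 24772944 reads, of which 76.4% to 80.6% fell in listed miRNAs. The members rested on many reads, from 1165 reads at the lowest value of miR-30b-5p to 142602 at the highest of miR-30d-5p. The smooth muscle markers miR-143 and miR-145, 4 of 4 arms detected, summed to 331968 to 428677 rpm in EWH and 347013 to 426858 rpm in control. MiR-143-3p alone averaged 383398 ± 36932 rpm in EWH and 395202 ± 31339 rpm in control (SD, n = 6 each). In a principal component analysis of the tested miRNAs the leading axis, with 46.3% of the variance, set EWH 3 (11.97) and EWH 4 (16.2) apart from a range of −7.94 to 4.94 for the rest. Control 1 lay at −7.94 on that axis but gave the highest value of the 12 libraries for 77 of the 303 tested miRNAs (25.4%). Values without these libraries stand beside the results that turn on them.

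Together the 5 guides made up about 1 in 100 of the listed reads. The sum lay between 7644 and 8339 rpm in EWH (median 8138 rpm) and between 7706 and 10888 rpm in control (median 8754 rpm). As a share of all listed values this was 1.02% ± 0.043 in EWH and 1.14% ± 0.15 in control (SD, n = 6 each). Every EWH library lay below the control median of the sum, and the groups overlapped. The highest control value was that of control 1, and the control mean was 8529 rpm without it, against 8922 rpm with it. No test was made on the sum, since its members were chosen with results known. In an extract of whole aorta, fewer cells of a type and less miRNA per cell cannot be told apart.

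The order of levels was miR-30d-5p, miR-30a-5p, miR-30c-5p, miR-30e-5p, miR-30a-3p, miR-30e-3p and miR-30b-5p by the mean of all 12 libraries. MiR-30d-5p, at 3911 rpm the 21st most abundant of the 641 miRNAs, exceeded miR-30a-5p (2118 rpm, 31st) in 12 of 12 libraries. MiR-30a-5p and miR-30c-5p (1830 rpm, 32nd) did not differ beyond their spread, with miR-30a-5p higher in 4 of 6 EWH and 5 of 6 control libraries. MiR-30c-5p exceeded miR-30e-5p (572 rpm) in 12 of 12. MiR-30e-5p and miR-30a-3p (554 rpm) overlapped and stood in opposite order by group: miR-30e-5p was the higher in 2 of 6 EWH and 5 of 6 control libraries, which was not tested. MiR-30a-3p exceeded miR-30e-3p (297 rpm) in 11 of 12, all but control 1, and miR-30e-3p exceeded miR-30b-5p (68.6 rpm, 103rd) in 12 of 12. These are levels per read of forms of nearly equal length, and differences in how well each sequence is captured into a library were not measured.

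**Figure D1:**
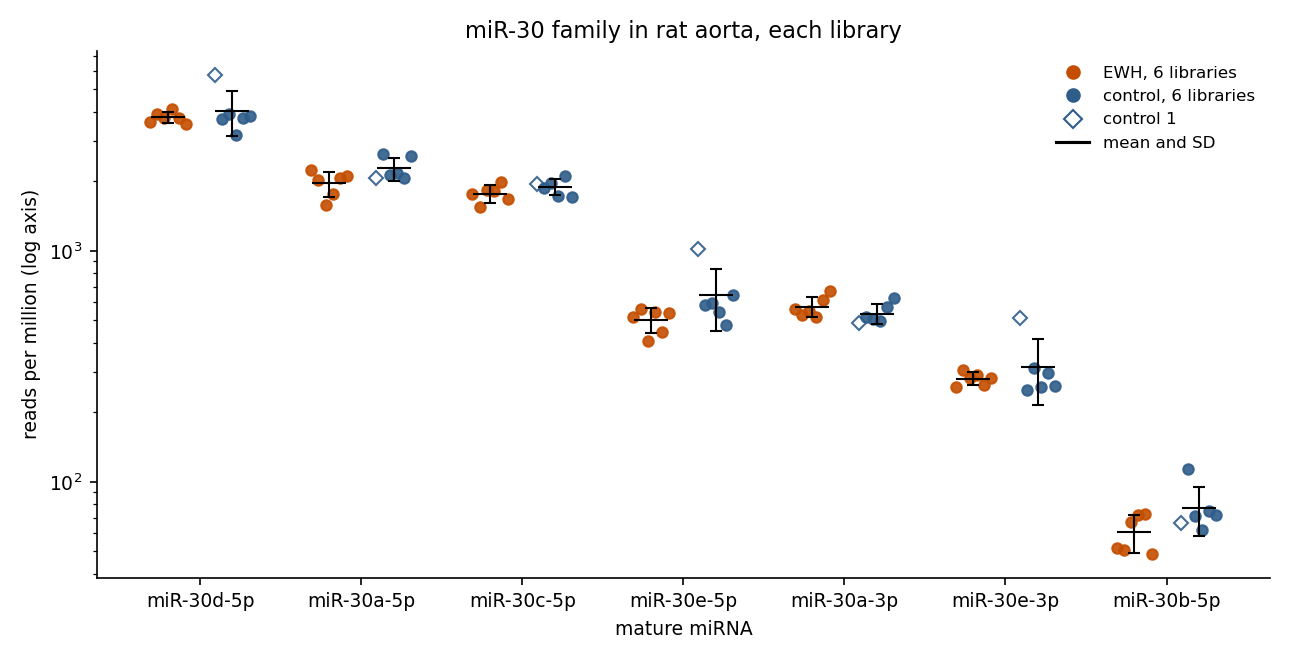
Level of each member in every library, in rpm on a log axis, with EWH left of control; bars are the mean and SD of 6 libraries and the open diamond is control 1. The family spans levels from 48.8 rpm (miR-30b-5p, EWH 6) to 5793 rpm (miR-30d-5p, control 1), and the groups overlap for each of the 7 members.

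Each miRNA was tested singly, and no member of the family passed the test for a difference between EWH and control. Of the 7 members, 6 had a lower mean log2 value in EWH and 1, miR-30a-3p, a higher one, beside 60.1% of the 303 tested miRNAs below 0. The members' median log2 fold change was −0.12, beside −0.06 over all tested miRNAs. By limma with Benjamini-Hochberg adjustment 0 of the 7 had an adjusted p under 0.05, nor did any other tested miRNA (0.0% of the tested). At an unadjusted limma p under 0.05 the count was also 0 of 7, where 23.1% of the tested miRNAs passed, 7.92% in the lower direction. On recovered whole reads, edgeR (13.2% of the tested called) and DESeq2 (20.8% called) each called 0 of 7 after Benjamini-Hochberg adjustment. Groups were separate for 0 of the 7 members and for 1.65% of the tested miRNAs. A p that misses the threshold does not show equal levels, so the interval of each difference is given below.

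Among the guides, rno-miR-30a-5p, known in human cells to limit the autophagy gene BECN1, read 1581 rpm at the lowest, 2042 at the median and 2236 at the highest in EWH, against 2068, 2151 and 2632 rpm in control. Of the 6 EWH libraries 4 lay below all controls, while EWH 1 and EWH 6 lay within the control range. Its means were 1961 ± 245 rpm in EWH and 2275 ± 257 rpm in control (SD, n = 6 each). The log2 fold change was −0.22 (SE 0.10, 95% interval −0.44 to 0.01; limma adjusted p = 0.23, Benjamini-Hochberg), which allows anything between a fold of 0.737 and 1.01. EWH 3 and EWH 4 held its lowest values, 1581 and 1755 rpm, and without both the log2 fold change was −0.10. After quantile normalization it was −0.0087 (limma adjusted p = 0.98, Benjamini-Hochberg). Scaling to the listed reads other than those of miR-143-3p moved it the other way, to −0.30 (limma adjusted p = 0.177, Benjamini-Hochberg).

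The guide rno-miR-30e-5p, which differs from miR-30a-5p at 1 base, also had a lower mean in EWH and a wider spread. It read 405 rpm at the lowest, 529 at the median and 560 at the highest in EWH, against 478, 588 and 1014 rpm in control. Every EWH library lay below the control median, and 4 of them lay within the control range. EWH over control was −0.32 on the log2 scale (SE 0.16, 95% interval −0.68 to 0.04; limma adjusted p = 0.258, Benjamini-Hochberg). Control 1 held the value of 1014 rpm, where the other controls read at most 646 rpm. Without control 1 the log2 fold change was −0.18. With all libraries it was −0.29 after quantile normalization (limma adjusted p = 0.240, Benjamini-Hochberg). Scaled to the listed reads other than those of miR-143-3p, it was −0.40 (limma adjusted p = 0.127, Benjamini-Hochberg).

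The least abundant guide, rno-miR-30b-5p, read 48.8, 59.3 and 72.8 rpm (lowest, median and highest) in EWH, against 61.7, 71.8 and 114 rpm in control. EWH 1, EWH 2 and EWH 6 lay below all controls and the other 3 within them. Its log2 fold change was −0.33 (SE 0.17, 95% interval −0.69 to 0.03, limma adjusted p = 0.258, Benjamini-Hochberg). Without control 2, which held the value of 114 rpm, it was −0.21. With all libraries it was −0.44 after quantile normalization (limma adjusted p = 0.171, Benjamini-Hochberg). Scaled to the listed reads other than those of miR-143-3p, it was −0.41 (limma adjusted p = 0.127, Benjamini-Hochberg).

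With all libraries, rno-miR-30c-5p had the narrowest spread of the 7 members, at 1547, 1785 and 1991 rpm (lowest, median and highest) in EWH, against 1716, 1909 and 2111 rpm in control. The ranges overlapped widely. Its log2 fold change was −0.10 (SE 0.08, 95% interval −0.27 to 0.08; limma adjusted p = 0.527, Benjamini-Hochberg), so the data allow folds of 0.83 to 1.06. It was −0.06 without EWH 2, which held the lowest value, and turned to 0.04 after quantile normalization. Scaled to the listed reads other than those of miR-143-3p, it was −0.18 (limma adjusted p = 0.122, Benjamini-Hochberg).

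The most abundant member, rno-miR-30d-5p, read 3547, 3762 and 4105 rpm (lowest, median and highest) in EWH, against 3191, 3803 and 5793 rpm in control. All EWH libraries lay inside the control range, and the EWH values varied little, with a coefficient of variation of 5.47% against 22.2% in control. Control 1 held the value of 5793 rpm, and without it the coefficient of variation in control was 7.75%. The log2 fold change was −0.07 (SE 0.12, 95% interval −0.33 to 0.19; limma adjusted p = 0.75, Benjamini-Hochberg), and its sign turned without control 1, at 0.04.

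The means of the 3p arms lay on different sides of control, and neither passed the test. The passenger arm rno-miR-30a-3p read 518, 556 and 667 rpm (lowest, median and highest) in EWH, against 488, 514 and 628 rpm in control. All 6 EWH libraries lay above the control median, and 1, EWH 6, lay above all controls. Its log2 fold change was 0.10 (SE 0.09, 95% interval −0.10 to 0.30; limma adjusted p = 0.56, Benjamini-Hochberg). The other, rno-miR-30e-3p, read 256, 283 and 306 rpm in EWH, against 249, 278 and 514 rpm in control, with the highest value again that of control 1. Its log2 fold change was −0.12 (SE 0.16, 95% interval −0.47 to 0.23; limma adjusted p = 0.68, Benjamini-Hochberg), and 0.03 without control 1.

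**Figure D2:**
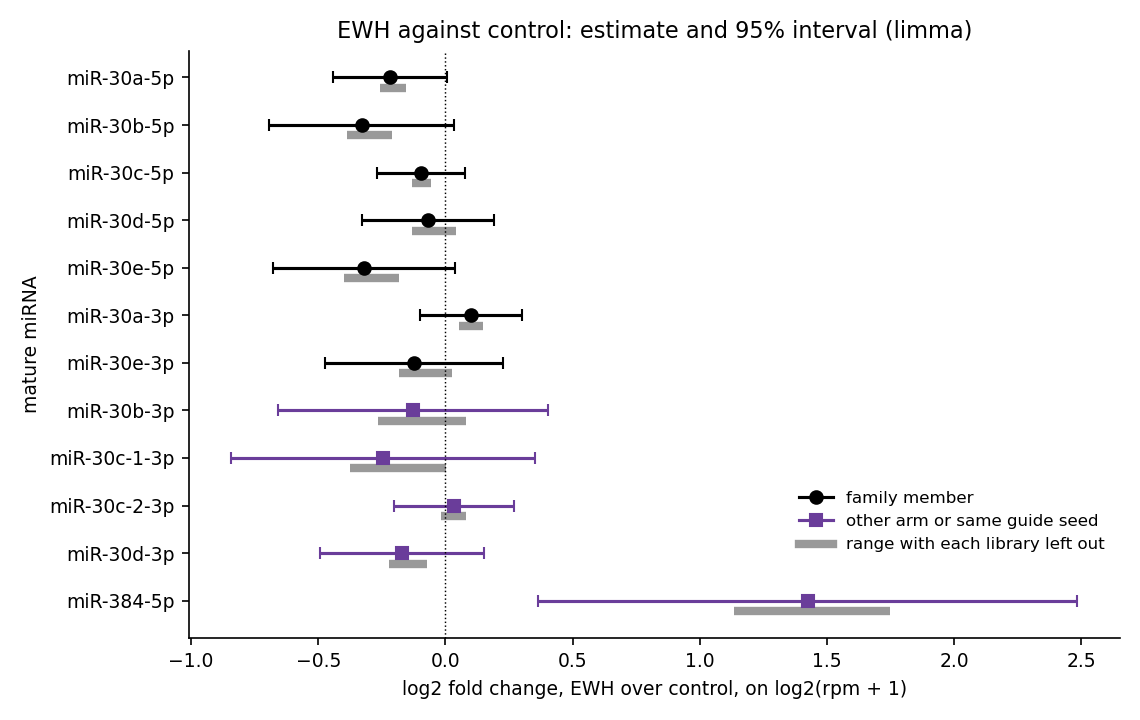
Log2 fold change of EWH over control on the log2(rpm + 1) scale with its 95% interval from limma, for the 7 members (circles) and, as squares, the 4 other arms of the hairpins and miR-384-5p; grey bars give the range with each library left out in turn. All 11 family arms have intervals that include 0, while that of miR-384-5p runs from 0.36 to 2.49.

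The make-up of the guide pool is described without a test. MiR-30d-5p made up 46.9% ± 2.43 of the 5 guides in EWH and 44.9% ± 4.33 in control (SD, n = 6 each), and all 6 EWH libraries lay above the control median of 43.9%. MiR-30a-5p made up 24.3% ± 2.78 in EWH and 25.8% ± 3.99 in control, and miR-30c-5p 21.9% ± 1.85 in EWH and 21.4% ± 2.52 in control. MiR-30e-5p made up 6.21% ± 0.71 in EWH and 7.11% ± 1.23 in control, and every EWH library lay below the control median of 6.94%. MiR-30b-5p stayed near 1% of the pool, at 0.75% ± 0.14 in EWH and 0.87% ± 0.22 in control. Control 1 held the highest share of miR-30d-5p (53.2%) and of miR-30e-5p (9.32%) and the lowest of miR-30a-5p (19.05%). Without control 1 the control shares were 43.2% ± 1.60 for miR-30d-5p, 27.1% ± 2.50 for miR-30a-5p, 22.1% ± 2.04 for miR-30c-5p, 6.66% ± 0.65 for miR-30e-5p and 0.92% ± 0.20 for miR-30b-5p (SD, n = 5). The share in EWH minus that in control was then 3.67 percentage points for miR-30d-5p, against 2.0 with control 1, and −2.87 points for miR-30a-5p, against −1.53. For miR-30c-5p it turned to −0.17 points, against 0.54 with control 1, and for miR-30e-5p it was −0.45 points, against −0.90. EWH 3 and EWH 4 held the lowest shares of miR-30a-5p in EWH, at 20.7% and 21.2%.

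**Figure D3:**
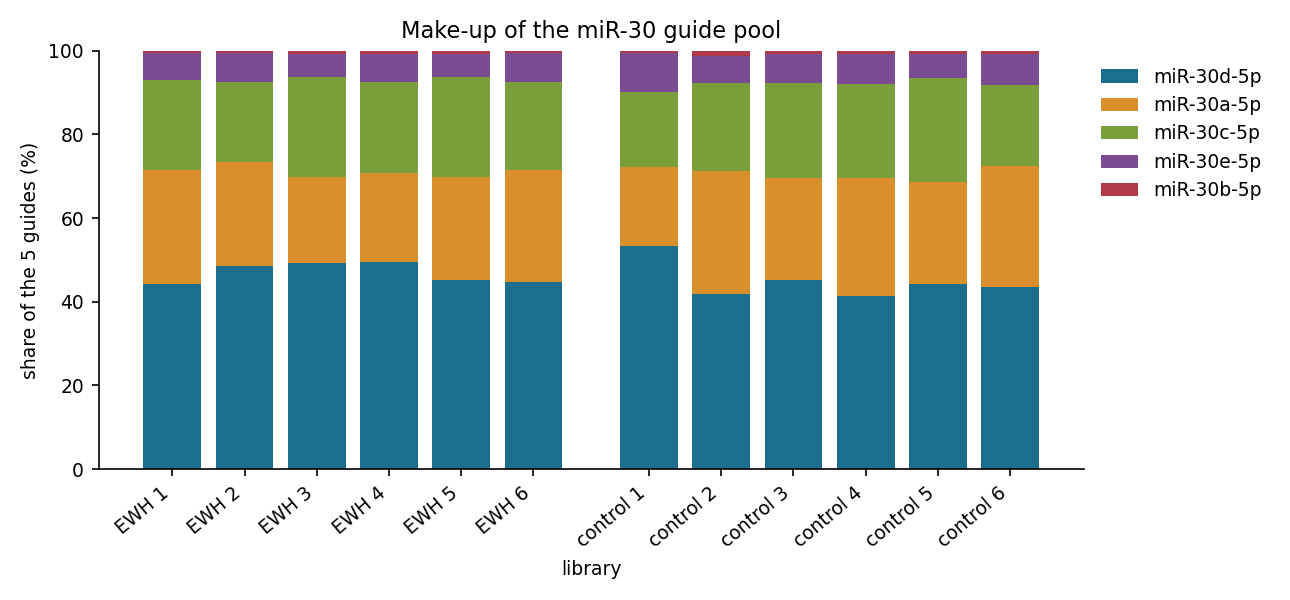
Share of each guide in the sum of the 5 guides, in percent, as stacked bars for the 6 EWH and 6 control libraries. MiR-30d-5p is the largest part in each library, from 41.4% in control 4 to 53.2% in control 1.

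Arms of 1 hairpin share their transcript, and the ratio of 5p to 3p reads, being taken within 1 library, does not depend on the library total. The fitted log2 ratios had 1 rpm added to each arm, which shifts them where an arm is low. For miR-30a there were 2.87 reads of 5p for each of 3p at the lowest, 3.37 at the median and 4.0 at the highest in EWH, against 3.63, 4.21 and 5.06 in control. Every EWH library lay below the control median and 4 lay below all controls, while EWH 1 and EWH 2 overlapped control 5. The difference in log2 ratio was −0.32 (SE 0.12, 95% interval −0.57 to −0.06). Its limma p was 0.0185, the 7th smallest of 67 hairpins, of which 19.4% lay under 0.05, and it did not pass after Benjamini-Hochberg adjustment (limma adjusted p = 0.167). Without EWH 3 and EWH 4 it was −0.25 with an adjusted p of 0.585 (limma, Benjamini-Hochberg), and over all alternatives the adjusted p ran from 0.113 to 0.585.

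The miR-30e hairpin had the lowest mean ratio of those compared, with 1.79 ± 0.20 reads of 5p for each of 3p in EWH and 2.07 ± 0.31 in control (SD, n = 6 each). The difference in log2 ratio was −0.20 (SE 0.13; limma adjusted p = 0.591, Benjamini-Hochberg). For miR-30d the guide outnumbered its partner strongly, at 735 ± 54.0 reads in EWH and 674 ± 73.6 in control, and for miR-30b the ratio was 5.09 ± 1.0 in EWH and 6.30 ± 2.64 in control (SD, n = 6 each). Limma's adjusted p was 0.591 and 0.727 for these hairpins (Benjamini-Hochberg). The miR-30b difference in log2 ratio depended on single controls, at −0.20 with all libraries, −0.45 without control 1 (limma adjusted p = 0.179, Benjamini-Hochberg) and −0.04 without control 2. Without control 1 the control ratio of miR-30b averaged 7.09 ± 2.01 (SD, n = 5). Hairpins of 1 family thus gave very unequal ratios of reads between their arms, and differences in how well each arm is captured were not measured. The 5p to 3p ratio stood in the order miR-30d, miR-30b, miR-30a and miR-30e in the means of both groups.

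**Figure D4:**
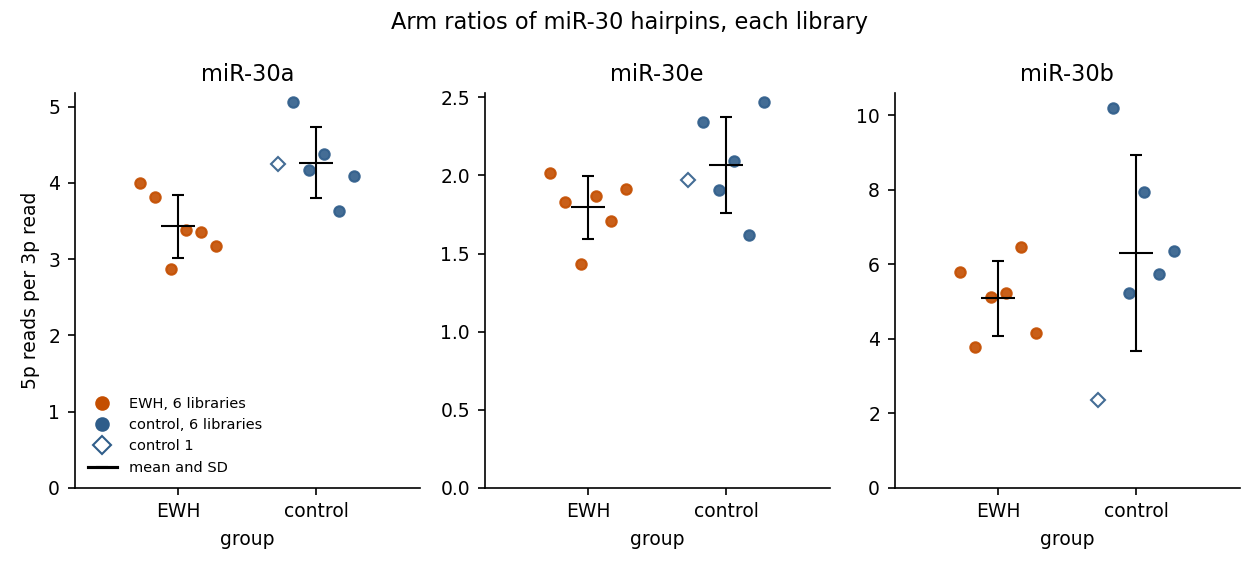
Reads of the 5p arm for each read of the 3p arm of the miR-30a, miR-30e and miR-30b hairpins in each library, with EWH left of control; bars are the mean and SD of 6 libraries, each axis starts at 0 and its scale differs by panel. For miR-30a 4 of the 6 EWH libraries lie below all controls, whose lowest value is 3.63.

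Of the 4 other arms of the hairpins, 3 averaged less than each member, while miR-30c-2-3p (88.3 rpm over all libraries) lay above miR-30b-5p (68.6 rpm). MiR-30c-2-3p averaged 89.3 ± 8.71 rpm in EWH and 87.3 ± 10.1 rpm in control, and miR-30c-1-3p averaged 6.69 ± 0.77 rpm in EWH and 9.09 ± 5.77 rpm in control (SD, n = 6 each). The arm from the miR-30c-2 hairpin thus outnumbered that from miR-30c-1 in each library, 11.7-fold to 16.6-fold in EWH and 4.69-fold to 15.9-fold in control. They share the seed UGGGAGA and differ at 3 of 22 positions, G9A, U12C and C22U, written from miR-30c-1-3p to miR-30c-2-3p.
miR-30c-1-3p: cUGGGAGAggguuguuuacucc
miR-30c-2-3p: cUGGGAGAaggcuguuuacucu
MiR-30b-3p averaged 12.04 ± 1.85 rpm in EWH and 14.2 ± 7.11 rpm in control, and miR-30d-3p averaged 5.19 ± 0.62 rpm in EWH and 6.05 ± 1.48 rpm in control (SD, n = 6 each). By limma with Benjamini-Hochberg adjustment 0 of these 4 passed in either direction (adjusted p 0.548 to 0.865), nor did edgeR call any. Without control 1 the control means were 6.85 ± 1.95 rpm for miR-30c-1-3p and 11.4 ± 2.31 rpm for miR-30b-3p (SD, n = 5). The log2 fold change of miR-30c-1-3p was then 0.0011, against −0.25 with control 1, and that of miR-30b-3p was 0.08, against −0.13.

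Control 1 stood high in most arms of 2 of the 3 hairpin pairs, a pattern described after its values were seen. In the pair inside Nfyc, miR-30e-5p, miR-30e-3p and miR-30c-1-3p read 1.78, 1.87 and 2.97 times the mean of the other 5 controls. In the pair of miR-30d and miR-30b, miR-30d-5p, miR-30d-3p and miR-30b-3p read 1.57, 1.58 and 2.46 times that mean, while miR-30b-5p read 0.844 times. In the pair of miR-30a and miR-30c-2, miR-30a-5p, miR-30a-3p and miR-30c-2-3p read 0.896, 0.896 and 1.11 times, and miR-30c-5p, which comes from 2 hairpins, read 1.03 times. Control 1 was the highest of the 12 libraries in 6 of the 11 arms, beside 25.4% of all tested miRNAs. The miR-30b hairpin had its lowest arm ratio there, 2.37, against at least 3.77 in EWH and at least 5.23 in the other controls. In the same library both endothelial markers, miR-126a-3p and miR-126a-5p, summed to 12305 rpm, against 4264 to 6913 rpm in EWH and 3290 to 5472 rpm in the other controls. The 4 miRNAs listed here as fat markers, which may not be particular to fat, summed to 1369 rpm there. The sum was 565 to 722 rpm in EWH and 531 to 857 rpm in the other controls, and the 4 did not stand high together. MiR-378a-3p, miR-193a-3p and miR-365-3p were highest in control 1, with miR-378a-3p at 1321 rpm there, against 90.0 to 376 rpm in EWH and 76.4 to 489 rpm in the other controls. MiR-196a-5p was lowest in control 1, at 10.24 rpm, against 317 to 562 rpm in EWH and 334 to 558 rpm in the other controls. The 4 leukocyte markers summed to 228 rpm, against 101 to 181 rpm in EWH and 84.4 to 195 rpm in the other controls, and of these 4 miR-150-5p alone was highest in control 1. These 3 marker lists are shown because their sums were highest in control 1, and the other lists were highest in other libraries. The erythrocyte markers were lowest in control 1, at 80.4 rpm, against 119 to 384 rpm in EWH. The epithelial markers summed to 601 rpm in control 1 and to 711 rpm in control 6, the highest. No marker of the 3 lists was at 0 in all libraries, and the part of any list in the result was not tested.

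**Figure D5:**
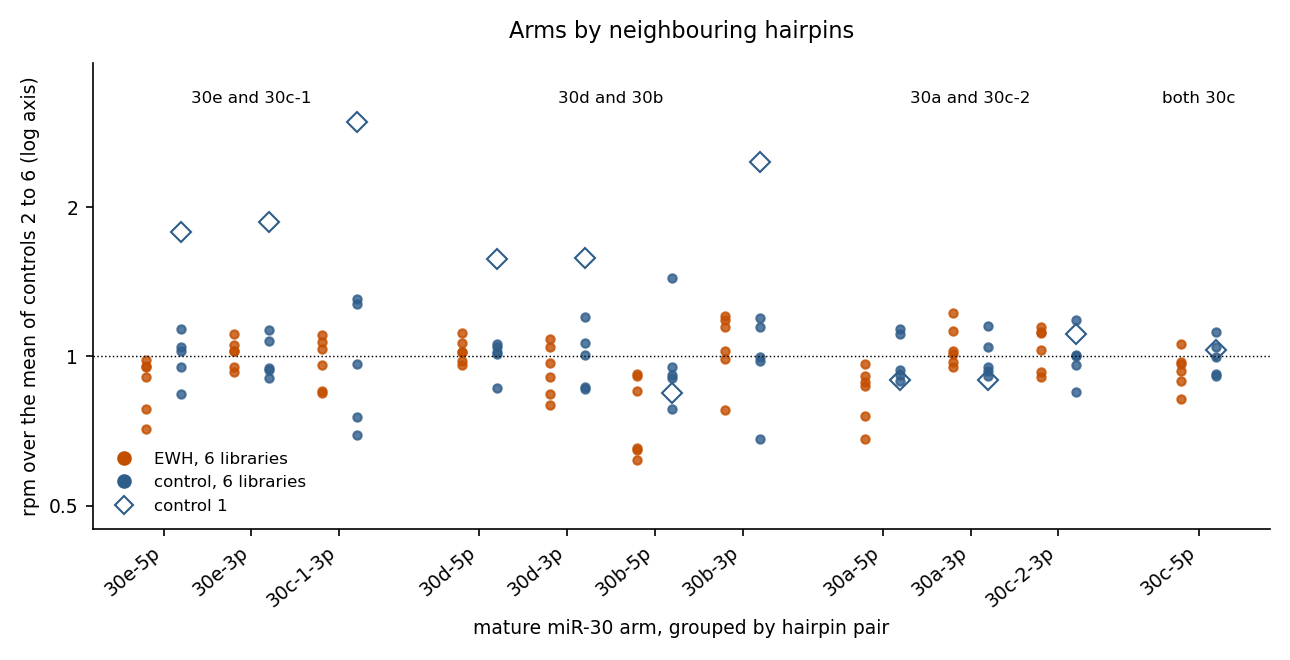
Each of the 11 family arms in every library over the mean of controls 2 to 6, on a log axis, grouped by neighbouring hairpins, with EWH left of control and control 1 as an open diamond. Control 1 stands above the other libraries for all 3 arms of the miR-30e and miR-30c-1 pair and for 3 of 4 arms of the miR-30d and miR-30b pair.

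The members' pooled SD within groups on the log2(rpm + 1) scale ran from 0.12 for miR-30c-5p to 0.29 for miR-30e-5p, beside a median of 0.33 over all tested miRNAs and 0.24 over those averaging at least 500 rpm. Without control 1 it was 0.10 for miR-30d-5p, 0.12 for miR-30e-3p and 0.18 for miR-30e-5p, in place of 0.21, 0.28 and 0.29.

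MiR-384-5p, the miRNA outside the family with the guides' seed, is known from brain and had a higher mean in EWH. It read 0.969 rpm at the lowest, 5.19 at the median and 15.6 at the highest in EWH, against 0.661, 1.12 and 2.21 rpm in control. EWH 3 and EWH 4 read highest, at 13.6 and 15.6 rpm, and 4 of 6 EWH libraries lay above all controls. The log2 fold change on log2(rpm + 1) was 1.42 (SE 0.49, limma adjusted p = 0.138, Benjamini-Hochberg). On recovered reads it was 2.35 by edgeR (adjusted p = 0.0308) and 2.36 by DESeq2 (adjusted p = 9.1e-04), both with Benjamini-Hochberg adjustment. These called 13.2% and 20.8% of the tested miRNAs. Without EWH 3 and EWH 4 the limma log2 fold change was 0.74 with an adjusted p of 0.384 (Benjamini-Hochberg). The summed markers of neurons and glia, 6 of 6 in the table and none at 0 in all libraries, ran from 116 to 966 rpm in EWH and from 80.7 to 190 rpm in control. EWH 3 and EWH 4 were highest, at 750 and 966 rpm. Of these 6 markers 4 passed the filter, the arms of miR-9a and miR-338. MiR-124-3p averaged 0.95 rpm over all libraries, and miR-219a-5p was at 0 in 9 of 12 libraries. The part of these markers in the result was not tested. At its highest, in EWH 4, miR-384-5p read 15.6 rpm beside a guide sum of 8288 rpm in the same library.

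Other miRNAs with roles like those known for miR-30 were examined as 2 lists, to be read beside all 303 tested miRNAs, of which limma called 0.0% and edgeR 13.2%, 60.1% lay below 0 and the median log2 fold change was −0.06. Of 9 tested miRNAs known to limit matrix genes or connective tissue growth factor (10 in the list), 0 passed limma or edgeR after Benjamini-Hochberg adjustment, 8 had a lower mean log2 value in EWH and the median log2 fold change was −0.21. The most abundant were miR-26a-5p at 107494 ± 8599 rpm in EWH and 102896 ± 8690 rpm in control, miR-26b-5p at 2644 ± 348 and 2669 ± 221 rpm in EWH and control, and miR-29a-3p, which limits collagens, at 568 ± 68.8 rpm in EWH and 709 ± 112 rpm in control (SD, n = 6 each). Their log2 fold changes were 0.06, −0.02 and −0.31 in that order. The miRNA at the median of this list averaged 1.52 rpm over all libraries, near the filter. Of 6 tested miRNAs studied in calcifying smooth muscle (7 in the list), 0 passed limma, edgeR called miR-204-5p higher (adjusted p = 0.0308, Benjamini-Hochberg), 4 had a lower mean log2 value in EWH and the median log2 fold change was −0.07. MiR-204-5p averaged 289 ± 192 rpm in EWH and 97.2 ± 34.5 rpm in control (SD, n = 6 each; limma adjusted p = 0.128, Benjamini-Hochberg). Its EWH libraries ran from 111 to 611 rpm, and the highest control read 154 rpm. In that list miR-125b-5p averaged 6312 ± 807 rpm in EWH and 6750 ± 1044 rpm in control, and the smooth muscle miR-145-5p averaged 1006 ± 211 rpm in EWH and 1138 ± 282 rpm in control (SD, n = 6 each).

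Members of the family varied with different miRNAs across libraries, by Pearson's r of log2(rpm + 1) centred within groups over 12 libraries that share the constraint of a fixed total. These are descriptions among 183 tested miRNAs averaging at least 10 rpm. MiR-30d-5p was most like the passenger arm of its neighbour, miR-30b-3p (r = 0.95, Spearman's rho = 0.80, r = 0.85 without control 1), then the endothelial miR-126a-3p (r = 0.92, rho = 0.88, r = 0.75 without control 1) and miR-30e-3p (r = 0.91, rho = 0.77, r = 0.50 without control 1). MiR-30e-3p was most like miR-224-5p (r = 0.96), miR-3557-3p (r = 0.95) and miR-193a-5p (r = 0.95), with rho from 0.78 to 0.87. MiR-30e-5p was most like miR-99b-3p (r = 0.87), miR-339-3p (r = 0.86) and miR-151-3p (r = 0.82), with rho from 0.75 to 0.90. Without control 1 these r were 0.83, 0.62 and 0.64.
MiR-30a-5p was most like miR-27b-3p (r = 0.89, rho = 0.87), then miR-140-3p (r = 0.78) and miR-24-1-5p (r = 0.75). Its partner arm miR-30a-3p had other companions, miR-194-5p (r = 0.84, rho = 0.80), miR-192-5p (r = 0.79, rho = 0.79) and miR-20a-5p (r = 0.69, rho = 0.62). MiR-30b-5p and miR-30c-5p had the same first companion, the smooth muscle miR-145-5p (r = 0.80 and 0.76, rho = 0.81 and 0.79). After it came miR-23a-3p (r = 0.76) and miR-409b (r = 0.75) for miR-30b-5p, and miR-191a-5p (r = 0.75) and miR-103-3p (r = 0.75) for miR-30c-5p.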

How the data were processed

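Small RNA from 6 EWH and 6 control libraries of aorta was compared. Per the labels' protocols, Trizol RNA was given adaptors at each end, amplified and cut from a gel at small insert sizes. Per the submitters' processing notes the build was rn6; aligner, counter and annotation: not given in the sources used here. Values deposited by the authors are in RPM, a reads-per-million unit, although the table is named for TPM: a library's values are multiples of 1 step, whole for 100% of values within 0.01 read. That step, 1 read, was 0.0404 to 0.0419 rpm; without molecular identifiers, depth covers counting error only.

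Columns were mapped by sample description. The filter asked for 1 rpm or more in 6 or more of the 12 libraries and kept 303 of 641 miRNAs. Log2(rpm + 1) values, on which folds of low miRNAs are understated, were fitted with limma 3.58.1 (trend, two-sided, Benjamini-Hochberg threshold 0.05; R 4.3.3), as were log2((5p + 1)/(3p + 1)) ratios of 67 hairpins. EdgeR 4.0.16 and DESeq2 1.42.0 took recovered reads. Procedures were tested on simulated data. Libraries within groups differed beyond sampling noise in all 30 pairs (chi-square over its degrees of freedom at least 119).

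The members and lists were chosen with earlier results of these data known. The rule named the members, the other arms, up to 3 most abundant tested miRNAs per list and the 3 most alike per member. RefSeq (GRCr8) gave sequences and gene order only. Figures used Python 3.11.15 and matplotlib 3.10.9. Alternatives were filters, pseudocounts of 0.1 and 5, 4 scalings, limma with robust variances or without trend, a replicate block and libraries left out; leaving out EWH 3, EWH 4 and control 1 together was added after seeing the data.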

Additional observations from a re-analysis of the deposited data

Results flagged for a closer look

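In 9 cases 1 library lay far from the other 5 of its group, by the gap to its nearest neighbour over the group's range. Chance gives such a gap in about 1 of 20 groups, and 46 groups were examined, many of which share libraries and members. Control 1 accounted for 7 of the 9. It read 5793 rpm in miR-30d-5p (next control 3906 rpm), 1014 rpm in miR-30e-5p (next 646 rpm) and 514 rpm in miR-30e-3p (next 312 rpm). It read 28.1 rpm in miR-30b-3p (next 13.7 rpm) and 20.3 rpm in miR-30c-1-3p (next 8.93 rpm). The 5 guides took 1.42% of its listed values (next 1.14%), and miR-30d-5p took 53.2% of its guide sum (next 45.1%). The other 2 were control 2 in miR-30b-5p, at 114 rpm where the next control read 75.0 rpm, and control 6 in the miR-30d arm ratio, at 811 where the next control had 672. No EWH library stood apart in this way in these 46 groups.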

How the results depend on the processing

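Of 231 values of members and of the miR-30a and miR-30e arm ratios under alternatives, 226 kept their direction and none passed an adjusted p of 0.05 (smallest 0.122 for a member and 0.113 for an arm ratio). The 5 that turned were small: miR-30c-5p at 0.035 after quantile normalization, and, without EWH 3, EWH 4 and control 1 together, miR-30d-5p at 0.013 and miR-30e-3p at 0.0094 (log2). With each library left out in turn miR-30d-5p ran from −0.13 to 0.040 and miR-30e-3p from −0.18 to 0.028, both above 0 without control 1 alone. The cause was not tested. Over all tested miRNAs the count called was 0 by limma (70 at an unadjusted p under 0.05). It was 8 after quantile normalization, 40 by edgeR, 63 by DESeq2, 1 without EWH 3 and 4, 1 without these and control 1, and 0 to 24 with each library left out (24 without EWH 2). The count of arm ratios called was 0, 3 at a pseudocount of 5, 1 without EWH 3, EWH 4 and control 1, and 0 to 1 with each library left out. With the replicate block limma called 0 miRNAs, with 57 at an unadjusted p under 0.05. Same-numbered libraries deviated together, at r over 0.1, in 3 of 6 pairs (r −0.50 to 0.31), and 1 of 6 EWH libraries correlated best with its own number. So few pairs cannot decide whether the numbers pair libraries. The members rested on 1165 to 142602 reads a library.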

Other observations

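Arms of 1 hairpin did not always vary together. Centred within groups over the 12 libraries, miR-30a-5p and miR-30a-3p had r = 0.46 (Spearman's rho = 0.54), and miR-30e-5p and miR-30e-3p had r = 0.77 (rho = 0.57), which was 0.04 without control 1. MiR-30a-5p and miR-30e-5p, which differ at 1 base, had r = 0.11 and, without control 1, r = 0.59. MiR-30c-5p and miR-30e-5p had r = −0.28, and −0.68 without control 1. These are descriptions of 12 libraries with a fixed total, with no test.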
